A study of Rattus norvegicus with 12 samples.

Results

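The 8 genes described here are the AP-1 transcription factors Fos, Fosb, Fosl1, Fosl2, Jun, Junb and Jund, together with Atf3. They were chosen by name, with their levels in these libraries already known, so that their changes between groups are given as a description and without p-values. All 8 were found among the 28727 named genes of the count table, and all 8 were among the 14669 genes that passed the filter on low counts. RNA came from INS-1 832/13 cells, an insulin-secreting rat insulinoma line that is 1 clone, so that the values describe a tumour line and not islets. The cells were transduced with an adenovirus for GFP or for ChREBPβ (ChREBPbeta in the sample labels), the short isoform of the carbohydrate response element-binding protein, and then cultured in 2 or 11 mM glucose over 48 h. The study's ChREBPβ virus carries a tagged mouse sequence. The 4 groups were GFP at 2 mM, GFP at 11 mM, ChREBPβ at 2 mM and ChREBPβ at 11 mM glucose, with 3 libraries each, lettered a, b and c. All 12 libraries thus came from cells that carried an adenovirus, and none came from cells without one.

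AP-1 is not a single protein but a set of dimers formed by basic leucine zipper proteins. Jun proteins pair with each other or with Fos proteins, whereas Fos proteins need a Jun partner, and the dimers bind the TPA response element TGACTCA or the cAMP response element TGACGTCA. Most members are immediate early genes, which are transcribed within minutes of a stimulus through ERK, JNK and serum response factor, and whose messages and proteins turn over fast. Atf3 belongs to the neighbouring ATF family, can pair with Jun proteins, and is known as a stress-induced factor of the integrated stress response, including in beta cells.

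The proximal promoters of Junb and Jund are shown because Junb was the AP-1 gene that differed most with ChREBPβ and Jund the one with the most counts in every library. The RefSeq table for the GRCr8 assembly held a window, from 250 bases before to 50 bases after the start, for 5 of the 8 genes. Those of Fos, Jun and Atf3 were not among them. The window of Jund lies at chr16:18769722-18770021 on the minus strand and that of Junb at chr19:40080876-40081175 on the plus strand. Capitals mark a cAMP response element in Jund and a TATA box in Junb, and both sequences are written 5′ to 3′.
Jund: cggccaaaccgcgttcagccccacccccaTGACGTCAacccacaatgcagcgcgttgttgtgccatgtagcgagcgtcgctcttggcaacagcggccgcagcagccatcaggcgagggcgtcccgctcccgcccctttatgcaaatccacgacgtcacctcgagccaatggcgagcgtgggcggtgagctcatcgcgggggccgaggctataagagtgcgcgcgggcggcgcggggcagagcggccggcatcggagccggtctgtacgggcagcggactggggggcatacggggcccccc
Junb: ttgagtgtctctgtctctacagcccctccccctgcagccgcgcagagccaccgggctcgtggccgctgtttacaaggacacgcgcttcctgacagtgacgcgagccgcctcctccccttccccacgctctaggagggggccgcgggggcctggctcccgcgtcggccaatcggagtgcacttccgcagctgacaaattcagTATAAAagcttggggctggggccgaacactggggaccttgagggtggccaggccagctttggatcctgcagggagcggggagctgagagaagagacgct
The cAMP response element TGACGTCA of Jund began 221 bases before the start, and 1.83% of the 33469 windows held this motif on either strand. The TATA box TATAAA of Junb began 49 bases before the start, and 14.2% of all windows held it. The window of Fosb also held TATAAA, on the other strand and 180 bases before the start. The TPA response element TGACTCA, the E-box CACGTG, the amino acid response element TGATGNAA and the CArG box were searched on both strands and had no match in the 5 windows; they had one in 4.63%, 6.42%, 3.98% and 1.64% of all windows. GC content was 65.3% in Junb, 69.7% in Jund, 70.7% in Fosl2, 62.3% in Fosl1 and 47.7% in Fosb, against a median of 51.7% over all windows. A match of letters is a description and does not show that a factor binds.

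Library totals ranged from 25754488 to 60531215 counts, and ChREBPβ libraries held on average 1.48 times as many counts as GFP libraries. The RNA had been amplified, so that counts are not independent molecules. Levels are given as TMM-scaled CPM, the counts of a gene relative to the scaled total of its library, and since the messages differ in length, CPM are compared between groups and not between genes. Rat Mlxipl, the gene that encodes ChREBP, was not higher with the ChREBPβ virus, with log2 fold changes of -0.33 ± 0.05 (SE) at 2 mM and -0.14 ± 0.05 at 11 mM glucose. An entry named ChREBPb, which the labels do not describe and whose sequence is not known here, gave 0.21 ± 0.06 and 0.37 ± 0.06. The ChREBP targets Txnip (4.12 ± 0.05 and 0.93 ± 0.05) and Pklr (1.69 ± 0.05 and 1.08 ± 0.05) rose with ChREBPβ at both concentrations (edgeR, adjusted p = 2.12e-21, 1.54e-12, 1.52e-16 and 1.72e-13). The summed CPM of 8 beta cell markers ranged from 25132.2 to 28208.1 in GFP cells at 2 mM, from 20252.2 to 22055.8 in GFP cells at 11 mM, from 13330.8 to 13723.9 in ChREBPβ cells at 2 mM and from 12434.6 to 12994.9 in ChREBPβ cells at 11 mM. Of these 8 markers, 7 were called at 2 mM, with Slc2a2 higher and the rest lower. Markers of fibroblasts, immune cells, endothelium and acinar cells each summed to at most 1.86 CPM in any library, and Ptprc and Prss1 were at 0 in all. The duct markers summed to between 104.0 and 170.7 CPM, nearly all of it Krt7, while the log2 fold changes of Sox9 were 3.26 at 2 mM and 3.04 at 11 mM. The part of these shifts in the results below was not tested, and in RNA from whole cultures, fewer cells of a kind and less RNA per cell cannot be told apart.

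**Figure D1:**
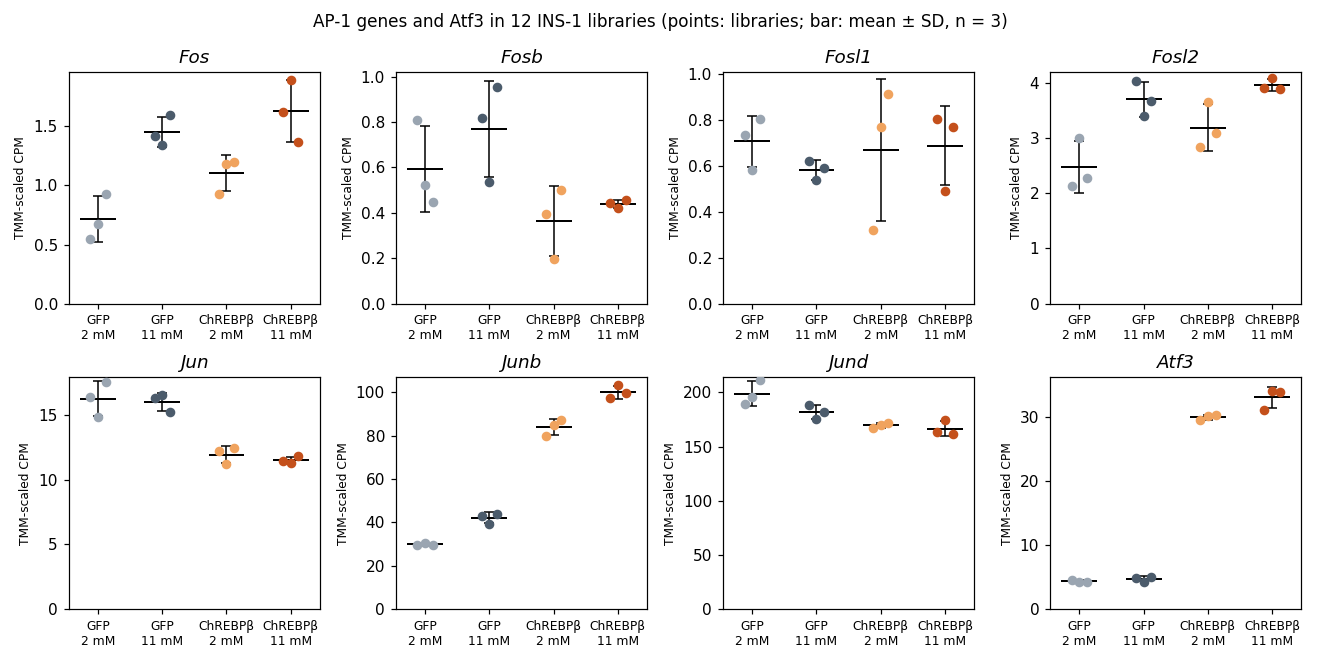
Level of each of the 8 genes in the 12 libraries, as TMM-scaled CPM on linear axes that start at 0. Points are libraries, and the horizontal bar and error bar are the mean and SD of the 3 libraries of a group. The libraries of the ChREBPβ groups lie above all GFP libraries for Junb and Atf3 and below all GFP libraries for Jun and Jund. For Jund the gap is narrow, from 174.2 to 175.1 CPM.

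Among the Jun proteins, Junb is often described as a weaker activator than Jun and as its competitor for partners. Junb stood at 29.5, 30.5 and 29.5 CPM in GFP cells at 2 mM and at 43.1, 39.4 and 44 CPM in GFP cells at 11 mM glucose. With ChREBPβ it stood at 79.9, 85.1 and 87.2 CPM at 2 mM and at 97.2, 103.3 and 99.5 CPM at 11 mM. The 4 groups followed each other without overlap, from GFP at 2 mM over GFP at 11 mM and ChREBPβ at 2 mM to ChREBPβ at 11 mM. The steps between neighbours were 12.3, 41.9 and 15.9 CPM, each more than the pooled SD of the pair (1.79, 3.17 and 3.44 CPM). Junb was thus 2.82-fold higher with ChREBPβ at 2 mM (log2 fold change 1.50 ± 0.05) and 2.37-fold higher at 11 mM (1.24 ± 0.05). Glucose alone, in GFP cells, went with a 1.41-fold higher level (0.50 ± 0.05), and in ChREBPβ cells with a 1.19-fold higher level (0.25 ± 0.05). ChREBPβ at 2 mM was 1.99-fold above GFP at 11 mM.

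Jun, the founding member and the main substrate of JNK, differed in the other direction. It stood at 16.4, 14.8 and 17.5 CPM in GFP cells at 2 mM and at 16.3, 16.5 and 15.2 CPM at 11 mM. ChREBPβ cells had 12.2, 11.2 and 12.4 CPM at 2 mM and 11.4, 11.3 and 11.8 CPM at 11 mM. Every ChREBPβ library was below every GFP library, and the glucose groups overlapped under either virus. The difference was 1.36-fold at 2 mM (log2 fold change -0.44 ± 0.08) and 1.39-fold at 11 mM (-0.48 ± 0.07). The log2 fold changes with glucose were -0.02 ± 0.07 in GFP cells and -0.05 ± 0.07 in ChREBPβ cells.

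Jund, which is known for steady expression in resting cells, differed little. It stood at 189.0, 196.3 and 211.6 CPM in GFP cells at 2 mM and at 188.1, 175.1 and 182.4 CPM at 11 mM, against 167.5, 170.1 and 172.1 CPM and 163.5, 174.2 and 161.4 CPM in ChREBPβ cells at 2 and 11 mM. The ChREBPβ libraries lay below the GFP libraries at each concentration, at 11 mM by a narrow gap. The log2 fold changes were -0.23 ± 0.05 at 2 mM and -0.13 ± 0.05 at 11 mM, both short of the 1.2-fold limit that a call requires. When only library totals were used for scaling, the value at 2 mM was -0.33 and passed that limit.

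The summed level of the 3 Jun genes was 245.0 ± 12.3 (SD, n = 3) CPM in GFP cells at 2 mM, 240.0 ± 8.4 CPM in GFP cells at 11 mM, 265.9 ± 6.1 CPM in ChREBPβ cells at 2 mM and 277.9 ± 9.42 CPM in ChREBPβ cells at 11 mM. The make-up of that sum moved more than its size. The share of Jun family counts from Junb was 12.2% ± 0.682, 17.6% ± 0.596, 31.6% ± 0.709 and 36% ± 0.427 in the same order, while that from Jun was 6.63% ± 0.437, 6.68% ± 0.439, 4.5% ± 0.254 and 4.15% ± 0.226. The rest was Jund, at 81.2% ± 0.672 in GFP cells at 2 mM and 59.9% ± 0.605 in ChREBPβ cells at 11 mM. These shares also depend on the lengths of the messages, and only their change between groups can be read.

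Ratios of counts within a library need no scaling between libraries and were formed after the levels had been seen. The number of Junb counts per Jun count was 1.85 ± 0.191 in GFP cells at 2 mM, 2.64 ± 0.257 in GFP cells at 11 mM, 7.04 ± 0.516 in ChREBPβ cells at 2 mM and 8.69 ± 0.421 in ChREBPβ cells at 11 mM. The ratio was 3.81-fold higher with ChREBPβ at 2 mM and 3.29-fold higher at 11 mM, and 1.43-fold higher with glucose in GFP cells, with no overlap between groups. As Junb was higher and Jun lower with ChREBPβ, a higher ratio repeats those differences and adds no support to them. Atf3 counts per Jun count went from 0.267 ± 0.0234 and 0.297 ± 0.0368 in GFP cells to 2.51 ± 0.15 and 2.87 ± 0.15 in ChREBPβ cells. Junb per Jund count was 0.15 ± 0.00939, 0.232 ± 0.00846, 0.495 ± 0.0154 and 0.601 ± 0.0131 in the 4 groups.

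**Figure D2:**
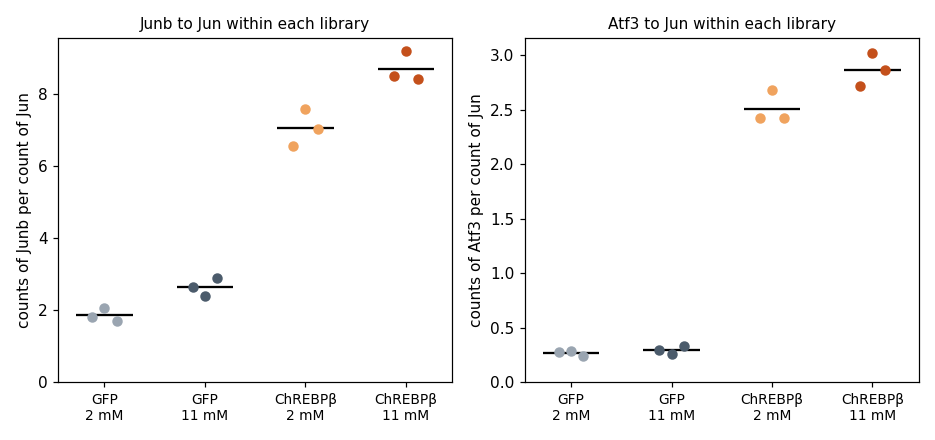
Counts of Junb (left) and of Atf3 (right) per count of Jun within each library, on linear axes that start at 0, with points for the 12 libraries and a bar for the mean of each group of 3. The Junb to Jun ratio lies between 1.68 and 2.9 in the GFP libraries and between 6.55 and 9.18 in the ChREBPβ libraries.

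The messages of the Fos family genes were measured at far fewer counts per library, from 9 to 233, and the spread between libraries was correspondingly wide. Fos, the classical immediate early gene, stood at 0.551, 0.671 and 0.93 CPM in GFP cells at 2 mM and at 1.42, 1.34 and 1.59 CPM at 11 mM, on 15 to 29 and on 50 to 75 counts. ChREBPβ cells had 0.931, 1.18 and 1.2 CPM at 2 mM and 1.62, 1.89 and 1.37 CPM at 11 mM. The groups at 2 mM met, at 0.93 and 0.931 CPM, and those at 11 mM overlapped. Fos was 2.01-fold higher with glucose in GFP cells (log2 fold change 1.01 ± 0.25) and 1.55-fold higher with ChREBPβ at 2 mM (0.64 ± 0.25). The values were 0.54 ± 0.21 for glucose in ChREBPβ cells and 0.17 ± 0.20 for ChREBPβ at 11 mM. The call at 2 mM was lost with library totals (0.54), in a fit of both groups alone (0.63), and without GFP 2 mM library a (0.50) or b (0.58) or ChREBPβ 2 mM library b (0.59) or c (0.58).

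Fosl2, which encodes Fra-2, followed the same order of groups. It stood at 2.13, 3 and 2.28 CPM in GFP cells at 2 mM and at 4.03, 3.4 and 3.66 CPM at 11 mM. ChREBPβ cells had 2.83, 3.65 and 3.08 CPM at 2 mM and 3.91, 4.09 and 3.88 CPM at 11 mM. All libraries at 11 mM were above all GFP libraries at 2 mM, whereas neighbouring groups overlapped. Fosl2 was 1.49-fold higher with glucose in GFP cells (log2 fold change 0.57 ± 0.15) and 1.29-fold higher with ChREBPβ at 2 mM (0.37 ± 0.16). The values were 0.30 ± 0.14 for glucose in ChREBPβ cells and 0.10 ± 0.14 for ChREBPβ at 11 mM. The call at 2 mM was close to the limit. It was lost with library totals (0.27), without a filter, with a replicate block or in a fit of both groups alone (0.37 in each). It was also lost without GFP 2 mM library a (0.28) or c (0.31), ChREBPβ 2 mM library b (0.26) or c (0.41), GFP 11 mM library c (0.37) or any of the ChREBPβ libraries at 11 mM (0.37 each).

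Fosb stood at 0.809, 0.525 and 0.449 CPM in GFP cells at 2 mM and at 0.819, 0.536 and 0.952 CPM at 11 mM. ChREBPβ cells had 0.394, 0.196 and 0.501 CPM at 2 mM and 0.443, 0.421 and 0.457 CPM at 11 mM. The groups overlapped at 2 mM and were apart at 11 mM, on 20 to 45 counts with GFP and 24 to 26 with ChREBPβ. The log2 fold changes with ChREBPβ were -0.70 ± 0.39 at 2 mM and -0.81 ± 0.34 at 11 mM, and neither was called. The value at 11 mM was called with library totals (-0.90), with a filter of 10 counts in every library or in a fit of both groups alone (-0.81 in each). It was called too without GFP 11 mM library b (-1.0), GFP 2 mM library a or ChREBPβ 2 mM library b or c (-0.81 each).

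Fosl1, which encodes Fra-1, stood between 0.322 and 0.913 CPM in all 12 libraries. Its lowest and its highest library were both ChREBPβ at 2 mM, and all 4 groups overlapped with their neighbours. The log2 fold changes with ChREBPβ were 0.01 ± 0.33 and 0.23 ± 0.32 at 2 and 11 mM, and those with glucose were -0.27 ± 0.35 in GFP cells and -0.04 ± 0.31 in ChREBPβ cells. With standard errors of 0.31 to 0.35, a 1.2-fold difference was not detectable at this depth.

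The summed level of the 4 Fos genes was 4.49 ± 0.279 CPM in GFP cells at 2 mM, 6.49 ± 0.593 CPM in GFP cells at 11 mM, 5.32 ± 0.734 CPM in ChREBPβ cells at 2 mM and 6.71 ± 0.216 CPM in ChREBPβ cells at 11 mM. Fosl2 gave between 50.4% and 63.2% of Fos family counts in every library. The share from Fosb was 13.4% ± 4.99 and 11.7% ± 2.41 in GFP cells at 2 and 11 mM and 7% ± 3.13 and 6.57% ± 0.478 in ChREBPβ cells.

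Atf3 differed the most of the 8 genes. It stood at 4.48, 4.26 and 4.23 CPM in GFP cells at 2 mM and at 4.87, 4.29 and 5.06 CPM at 11 mM. ChREBPβ cells had 29.5, 30.1 and 30.2 CPM at 2 mM and 31.1, 34 and 33.9 CPM at 11 mM. The lowest ChREBPβ library was far above the highest GFP library, and the GFP groups overlapped. Atf3 was 6.94-fold higher with ChREBPβ at 2 mM (log2 fold change 2.79 ± 0.08) and 6.93-fold higher at 11 mM (2.79 ± 0.07). The log2 fold changes with glucose were 0.14 ± 0.09 in GFP cells and 0.14 ± 0.06 in ChREBPβ cells, and the difference between the ChREBPβ effects at 11 and 2 mM was -0.00 ± 0.10. In ChREBPβ cells the libraries at 2 and 11 mM did not overlap, by a step of 3.04 CPM against a pooled SD of 1.2 CPM.

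**Figure D3:**
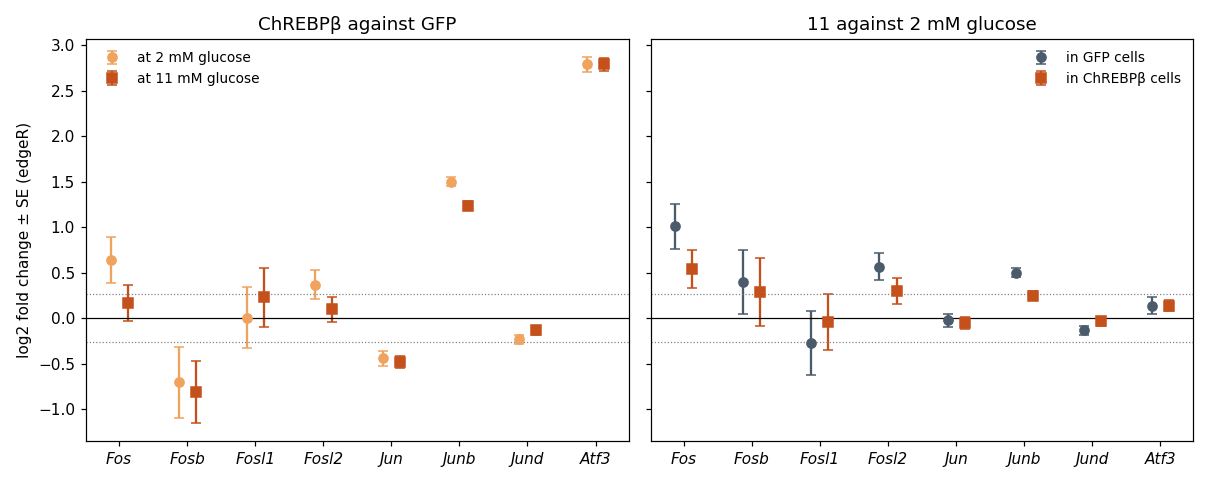
Log2 fold changes with their standard errors (edgeR, 12 libraries in a single fit) for ChREBPβ against GFP at either glucose concentration (left) and for 11 against 2 mM glucose under either virus (right). Dotted lines mark the 1.2-fold limit of a call. Atf3 and Junb stand highest on the left, at 2.79 and 1.50 for 2 mM, and Fos highest on the right, at 1.01 in GFP cells.

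A call asked for an adjusted p below 0.05 and a difference of 1.2-fold or more. With ChREBPβ at 2 mM, 5 of the 8 genes were called, 4 higher (Fos, Fosl2, Junb, Atf3) and 1 lower (Jun), where 44.1% of all tested genes were called, 21.0% higher and 23.2% lower. With ChREBPβ at 11 mM, 3 were called, Junb and Atf3 higher and Jun lower, where 33.4% of all tested genes were called, 14.3% higher and 19.1% lower. Of all calls with ChREBPβ, 47.5% were higher at 2 mM and 42.9% at 11 mM, and under scaling by library totals alone 33.2% and 29.3%. With glucose in GFP cells, Fos, Fosl2 and Junb were called higher, where 20.2% of tested genes were called and 10.2% called higher. With glucose in ChREBPβ cells edgeR called 0 of the 8, where 3.87% of tested genes were called. A looser limit, an unadjusted p under 0.05, was passed by 4 (Fos, Fosl2, Junb and Atf3), and DESeq2 called 0. The share of all tested genes past that looser limit is not given here, so the 4 cannot be compared with the 3.87%. Of these 4, Junb (0.25) also passed the adjusted threshold in edgeR and fell short only of the 1.2-fold limit. For the difference of the ChREBPβ effects between 11 and 2 mM edgeR called 0 of the 8, where 6.31% of tested genes were called. The unadjusted p was under 0.05 for 1, Junb, again without a share of all tested genes to compare with, and DESeq2 called 0. Here too Junb (-0.25) passed the adjusted threshold in edgeR and fell short only of the 1.2-fold limit. Without ChREBPβ 2 mM library c or ChREBPβ 11 mM library a, Junb was called with glucose in ChREBPβ cells (0.28 and 0.27). Without GFP 2 mM library b, GFP 11 mM library b, ChREBPβ 2 mM library a or ChREBPβ 11 mM library b it was called in the difference of effects (-0.27, -0.30, -0.28 and -0.28).

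Groups did not overlap for 5 of the 8 genes with ChREBPβ at 2 mM and for 5 at 11 mM, where 63.3% and 56.1% of tested genes did not overlap. With glucose they did not overlap for 4 genes in GFP cells and for 4 in ChREBPβ cells, beside 42.0% and 28.9% of tested genes. The median log2 fold change of the 8 genes was 0.19 and 0.13 with ChREBPβ at 2 and 11 mM and 0.27 and 0.19 with glucose in GFP and ChREBPβ cells, against -0.02, -0.02, -0.00 and 0.00 over all tested genes. Because the genes were chosen on these groups, nothing is read from these counts. Comparisons that have a group in common share its 3 libraries and are not independent.

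The genes whose log2 CPM followed each of the 8 most closely over the 12 libraries were taken from 12471 tested genes that averaged 1 CPM or more, by Pearson's r, as a description. For Atf3 they were Cyth1 (r = 0.999) and Asns (0.998), the asparagine synthetase gene, which responds with Atf3 to a lack of amino acids. The log2 fold changes of Asns were 1.43 and 1.40 for ChREBPβ at 2 and 11 mM and 0.12 for glucose in GFP cells. Those of Cyth1 were 2.22, 2.25 and 0.08 in the same order. For Junb they were Lonp2 (0.998), which had 0.95, 0.81 and 0.32, and Gpd1 (0.998), the cytosolic glycerol-3-phosphate dehydrogenase, which had 2.43, 1.88 and 0.95. For Jun they were Sun1 (0.977) and Camkmt (0.976), and for Jund Armc9 (0.971) and Klhl36 (0.971). For Fos they were Aurkb (0.949) and Edn3 (0.948), and for Fosl2 Sec61a1 (0.949) and Ubfd1 (0.944). For Fosb, Napb (0.870) and Insig2 (0.858), and for Fosl1, Pcdhga7 (0.832) and Tgm4 (0.785), were the closest, on counts too low for a pattern to be read. With 4 groups of 3 libraries, such values mainly reflect the order of the groups.

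The other genes of the pathway were taken from 6 lists drawn up from textbook knowledge, with earlier results of these data known. Their values come from the same fit over all genes. The genes named with p-values from each list were picked because they were called at 2 mM, so a low adjusted p there follows from the choice. With ChREBPβ at 2 mM, 6 of 19 tested bZIP partners rose and 4 fell, and at 11 mM 4 rose and 3 fell, with median log2 fold changes of -0.00 and -0.04. The share called was 52.6% and 36.8%, beside 44.1% and 33.4% of all tested genes. Mafa, the large Maf factor of mature beta cells and an activator of the insulin gene, fell from 102.3 ± 5.48 to 55.7 ± 3.05 CPM at 2 mM, by 0.88 on the log2 scale, and by 0.76 at 11 mM (edgeR, adjusted p = 2.77e-11 and 3.42e-10). Batf3, a partner of Jun proteins, fell by 0.72 and 0.81 (3.56e-05 and 1.39e-05). Mafk, a small Maf factor, rose by 0.82 and 0.73 (7.28e-12 and 4.16e-11), and Atf4, the central factor of the integrated stress response, rose by 0.59 and 0.48 (3.91e-09 and 8.07e-08). Maf rose by 1.71 ± 0.46 and 1.13 ± 0.41 (0.00345 and 0.0291) from 0.158 and 0.183 CPM, and leaving out any of 5 libraries at 11 mM (GFP a, b or c, ChREBPβ a or c) ended the second call, with values from 0.97 to 1.25, as did testing without a filter (1.13).

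Of 19 tested genes of the JNK and p38 cascade, 5 rose and 4 fell at 2 mM, and 4 rose and 3 fell at 11 mM, with medians of 0.00 and 0.02. The share called was 47.4% and 36.8%, near the 44.1% and 33.4% of all tested genes. The scaffold Mapk8ip3 rose by 1.04 and 0.84 at 2 and 11 mM (edgeR, adjusted p = 2.58e-13 and 8.67e-12). The upstream kinases Map3k4 (0.93 and 0.84) and Map3k5, the redox-sensitive ASK1 (0.58 and 0.31), rose as well (1.38e-12 and 6.78e-12, and 1.16e-07 and 0.000247). The call of Map3k5 at 11 mM was lost under scaling by library totals (0.22). Mapk9, which encodes JNK2, fell by 0.39 and 0.31 (3.3e-06 and 5.01e-05), the second call being lost without GFP 11 mM library b (-0.26). Map2k6, an activator of p38, fell by 0.72 and 0.55 (0.000454 and 0.00434), and the p38 kinase Mapk12 fell by 0.49 and 0.62 (0.000123 and 1.29e-05).

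Of 22 tested genes of the ERK cascade and of serum response factor and its cofactors, 6 rose and 3 fell at 2 mM, and 5 rose and 3 fell at 11 mM, with medians of 0.13 and 0.08. The share called was 40.9% and 36.4%, near the 44.1% and 33.4% of all tested genes. Mapk3, which encodes ERK1, rose by 0.68 and 0.65 (edgeR, adjusted p = 1.8e-09 and 3.86e-09), while its activator Map2k1 fell by 0.49 and 0.38 (2.04e-08 and 9.85e-07). Of the ribosomal S6 kinases downstream of ERK, Rps6ka1 rose by 0.32 and 0.30 (1.01e-05 and 2.62e-05) and Rps6ka2 fell by 0.63 and 0.42 (1.94e-10 and 8.01e-08). Rps6ka3 had -0.21 and -0.20 and was not called. Both calls of Rps6ka1 were lost under scaling by library totals (0.22 and 0.21). Of the MEF2 factors, which act at the Jun promoter, Mef2d rose by 0.83 and 0.46 (9.29e-11 and 5.41e-07) and Mef2c fell by 0.93 and 0.84 (9.71e-05 and 0.000261). Mef2c fell from only 3.48 and 3 CPM in GFP cells at 2 and 11 mM. Mef2a had -0.26 and -0.06 and was not called.

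Of 13 tested genes for AP-1 turnover and braking, which hold MAP kinase phosphatases and RNA-decay factors, 4 rose and 4 fell at 2 mM, and 4 rose and 2 fell at 11 mM, with medians of 0.00 and -0.06. In all, 61.5% and 46.2% were called, beside 44.1% and 33.4% of all tested genes. Dusp4, a nuclear phosphatase of ERK and JNK, went at 2 mM from 15.7 ± 1.7 up to 62.6 ± 2.1 CPM and at 11 mM from 18.3 ± 0.845 up to 69 ± 2.76 CPM, by 2.01 ± 0.07 and 1.91 ± 0.06 on the log2 scale (edgeR, adjusted p = 1.72e-15 and 2.49e-15). Zfp36, which encodes tristetraprolin and speeds the decay of AU-rich messages such as Fos, rose by 1.00 and 1.12 (1.6e-09 and 1.32e-10). Dusp6, a phosphatase of cytoplasmic ERK, rose by 0.61 and 0.35 (4.46e-05 and 0.00383), the second call being lost without ChREBPβ 11 mM library a (0.25). Dusp10, a phosphatase of JNK and p38, fell by 1.41 and 1.06 (2.77e-13 and 3.68e-11) and the JNK phosphatase Dusp8 by 0.44 and 0.35 (1.31e-07 and 2.93e-06). Dusp1, itself an immediate early gene, fell by 0.45 at 2 mM (6.65e-06) and had -0.19 at 11 mM (0.0177), short of the 1.2-fold limit, which it passed under scaling by library totals (-0.28).

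Of 25 genes often given as AP-1 targets, 13 were tested, and 4 rose and 1 fell at either concentration, with medians of -0.01 and 0.45. The 4 were not the same genes, as Lif was called at 2 mM only. The median at 11 mM is at the value of Plaur (0.45 ± 0.34), which was not called and had 0.725 CPM with GFP and 0.993 CPM with ChREBPβ. In all, 38.5% were called at each concentration, near the 44.1% and 33.4% of all tested genes. The genes not tested had at most 35 counts in all 12 libraries together, and Mmp3, Mmp10, Spp1 and Ereg had 0. Ccnd1, which encodes cyclin D1 and was known from earlier results when the list was written, went at 2 mM from 1.64 ± 0.267 up to 93.4 ± 7.25 CPM and at 11 mM from 2.01 ± 0.344 up to 129.9 ± 6.63 CPM (log2 fold changes 5.82 ± 0.10 and 6.01 ± 0.09, edgeR, adjusted p = 1.83e-19 and 3.33e-20). Hbegf, a ligand of the EGF receptor, rose from 18.2 ± 0.609 to 108.2 ± 2.4 CPM and from 54.1 ± 3.16 to 142.0 ± 4.35 CPM, by 2.57 and 1.39 (1.45e-18 and 5.27e-15). Lif, a cytokine of the IL-6 family, rose by 1.10 ± 0.24 at 2 mM (0.000538) and had 0.48 ± 0.20 at 11 mM (0.0548), a value that was called without ChREBPβ 11 mM library a (0.60), with RLE factors (0.50) or with 10 counts required in every library (0.49). Vim, which encodes vimentin, fell by 1.16 ± 0.48 and 1.64 ± 0.46 (0.045 and 0.00591) from 0.413 and 0.429 CPM, and the call at 2 mM was lost when any of 9 libraries was left out (values from -1.26 to -0.93), with DESeq2 (-1.20), without a filter (-1.18) and with a replicate block (-1.18).

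Of 17 tested stress response genes that are regulated together with Atf3, 8 rose and 2 fell at 2 mM, and 9 rose and 1 fell at 11 mM, with medians of 0.24 and 0.27. The share called was 58.8% at both concentrations, beside 44.1% and 33.4% of all tested genes. Gadd45a, a growth arrest and DNA damage gene, rose from 17.2 ± 1.19 to 69.3 ± 2.78 CPM and from 25.2 ± 0.845 to 80.3 ± 4.44 CPM, by 2.01 and 1.67 (edgeR, adjusted p = 4.08e-16 and 4.45e-15). Asns rose by 1.43 and 1.40 (3.98e-16 and 9.38e-16). Chac1, a glutathione-degrading enzyme and a target of Atf4, rose by 1.13 at both concentrations (0.000102 and 5.67e-05). Sesn2, a stress-induced inhibitor of mTORC1, fell by 0.51 and 0.28 (3.8e-09 and 1.84e-05), the second call being lost without ChREBPβ 11 mM library c (-0.25), with DESeq2 (-0.26) and with RLE factors (-0.26). Vldlr fell by 0.33 at 2 mM (7.36e-06) and had 0.03 at 11 mM (0.677), where scaling by library totals gave -0.06.

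**Figure D4:**
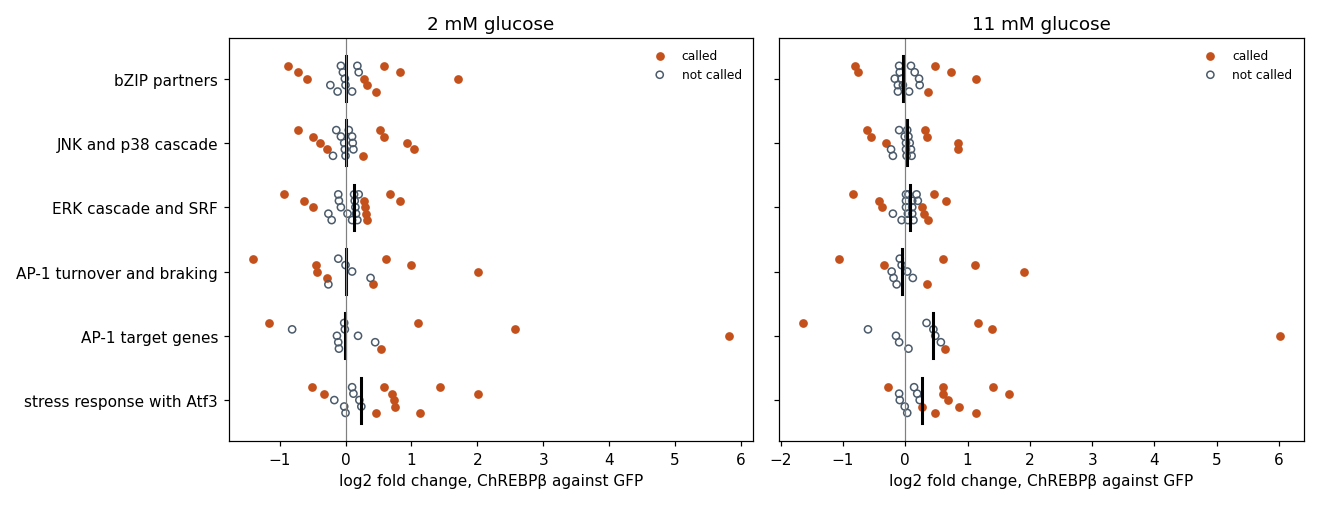
Log2 fold change of the tested genes of the 6 lists, without 1 gene that is not reported here, for ChREBPβ against GFP at 2 mM (left) and at 11 mM glucose (right). Filled points were called, open points were not, the black bar is the list's median, and the vertical scatter within a list has no meaning. The points of every list fall on both sides of 0, and the point farthest right is Ccnd1, at 5.82 and 6.01.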

How the data were processed

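RNA from INS-1 832/13 cells was, for 12 libraries, amplified with the NuGEN Ovation system and sequenced. The authors deposited whole-number counts of reads per gene without normalization; the processing notes name the genome build Rnor_6.0 and edgeR, and the aligner and counter are not given in the sources used here. Samples were grouped by their titles. The study describes its values as averages of 3 independent experiments, while the labels give only a letter for each library. 4 further columns that repeat library names but hold values that are not whole numbers were not used. 1 row without a gene name (at most 0.00601% of a library's counts) was left out, and 26 names had been turned into dates.

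R 4.3.3 with edgeR 4.0.16 (filterByExpr, TMM, quasi-likelihood test), limma 3.58.1, DESeq2 1.42.0 and Python 3.11.15 were used. All 12 libraries entered 1 fit with the 4 groups as factor and no covariate. Adjusted p is Benjamini-Hochberg over the 14669 tested genes within a comparison, and a call needs an adjusted p under 0.05 and 1.2-fold. SE is the log2 fold change over the square root of F. The fit was tested on simulated data. Each pair of replicates differed by more than sampling noise (chi-square per degree of freedom 3.13 to 17.5).

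The 8 genes and all lists were chosen with earlier results of these data known. Named genes are the 8, the 3 called genes of each list with the largest rise and the 3 with the largest fall at 2 mM, the 2 genes most alike each of the 8 (log2 CPM, prior count 2), and the genes that check the virus. Plaur, Mef2a, Rps6ka3 and Tgfb1 are given outside this rule. 1 gene that this rule names is not reported here. Of the lists' genes, Map3k1 and Mkl2, and of the markers Col1a2 and Pecam1, were not analysed here. The RefSeq table for GRCr8 gave alternative symbols and promoters only. Alternatives were other normalizations, tools, filters and fold limits, a replicate block, 2-group fits and leaving out each library.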

Additional observations from a re-analysis of the deposited data

Results flagged for a closer look

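The interaction term of the edgeR fit is given here as the ChREBPβ effect at 11 mM minus that at 2 mM on the log2 scale, for genes past the adjusted threshold. Junb had -0.25 (effects 1.24 and 1.50), which is short of the 1.2-fold limit of a call. It was the only one of the 8 AP-1 and Atf3 genes past the adjusted threshold. As the 8 were chosen with their levels known, this is a description and not a test. In the ERK list, Mef2d had -0.37 (adjusted p = 0.00406). Rps6ka2 had 0.20 (0.0428), also short of the 1.2-fold limit. In the list of turnover genes, Dusp10 had 0.35 (0.0195). Among the AP-1 targets, Hbegf had -1.18 (1.02e-09), with GFP cells at 18.2 CPM at 2 mM and 54.1 CPM at 11 mM. Tgfb1, a target outside the naming rule and chosen after its values were seen, had 1.17 ± 0.31, from -0.01 at 2 mM to 1.16 at 11 mM. Because of that choice, the value of Tgfb1 is a description only. In the stress list, Gadd45a had -0.34 (0.0132) and Vldlr had 0.35 (0.00223). Sesn2 had 0.23 (0.0211), short of the 1.2-fold limit. Of the genes that check the virus, Txnip had -3.20 (7.35e-17) and Pklr had -0.61 (4.58e-06). Both comparisons behind each difference use separate libraries. Groups of 3 libraries were not searched for single outlying libraries.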

How the results depend on the processing

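Of 747 values of the 8 genes recomputed under another setting, 715 kept their side of the threshold, 18 lost the call and 14 gained one. In 0 cases did a value change sign where either fit called it. An uncalled value that changed sign within its spread was counted as kept. Of 1250 values of the list genes, 1219 were kept in this way, and of 438 counts, 422 stayed within 1.5 times the main count. The number of the 8 genes called with ChREBPβ at 2 mM was 5, and 3 in a fit of both groups alone, where Fos and Fosl2 were lost. Leaving out single libraries gave 3 to 5 (3 without GFP 2 mM library a or ChREBPβ 2 mM library b or c). Leaving out single libraries gave 0 to 1 called of the 8 for glucose in ChREBPβ cells and 0 to 1 for the difference of effects, the 1 being Junb. Without a minimum fold change, 1 of the 8 was called in each of these 2 comparisons, 5030 genes were called with glucose in GFP cells against 2963, 1100 with glucose in ChREBPβ cells against 567, 11 bZIP partners at 11 mM against 7 and 16 ERK and SRF genes at 2 mM against 9, since the rule then asks for less. With library totals in place of TMM, the median of all genes shifted by -0.10 at 2 mM and -0.08 at 11 mM, and calls that were higher made up 33.2% of all calls with ChREBPβ at 2 mM against 47.5%, and 29.3% against 42.9% at 11 mM. With a replicate block on the letters, 4 of the 8 genes were called at 2 mM, Fosl2 being lost, 3 at 11 mM, 3 with glucose in GFP cells and 0 in the other 2 comparisons. Libraries that share a letter did not deviate together (r from -0.114 to 0.0644 over 18 pairs, 0 of them over 0.1; other pairs -0.0871 to 0.159), so that the letters were taken as names only. Depth limits what can be said of Fos, Fosb and Fosl1, which rest on 9 to 108 counts per library.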
